A study of Mus musculus with 4 samples.

Results

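Expression was examined for 10 genes of the transforming growth factor beta (TGF-beta) signalling route in haematopoietic stem cells (HSC): the Ski family co-repressors Skil and Ski, 7 Smad proteins (Smad1 to Smad7), and the co-repressor Tgif1. They were found by name among the probe sets that the array's annotation pairs with exactly 1 gene symbol. All 10 were measured, by 22 probe sets, among 18193 genes and 34945 such probe sets in all. For each gene the main value is from its brightest probe set, by the mean over the 4 arrays, and the others are given beside it. The members were chosen by name and their main probe sets selected on the mean over all 4 arrays. That mean does not use the group labels. It includes the deficient pools, which can decide between probe sets of similar brightness. The genes were, however, put together with the result for Skil already known, since its difference between the groups was among those with the lowest p in the table, so the differences below are descriptions of these pools and no gene's difference is put forward as a test of the group.

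RNA was profiled on Affymetrix arrays from mouse HSC sorted with a KLS CD48- CD150+ gate, which takes cells with Kit and Sca-1 and without lineage markers and then those with the SLAM marker pattern of stem cells. There were 2 groups of 2 pools, and each pool came from 3 mice. The Rb family deficient pools carry the genotype Rb -/- p130 -/- p107-/- and the wild type pools Rb +/+ p130 +/+ p107-/-, so p107 (Rbl1) is labelled as deleted in both groups and the groups differ by label in Rb (Rb1) and p130 (Rbl2). The labels give tamoxifen injection of adult mice to start recombination, for both groups alike, and isolation of the cells 2 weeks later. The sources used here do not give the promoter that drives the recombinase, or the sex and exact age of the mice.

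TGF-beta, activins and bone morphogenetic proteins (BMPs) bind serine/threonine kinase receptors, which phosphorylate receptor Smads. Smad2 and Smad3 carry TGF-beta and activin signals and Smad1 and Smad5 carry BMP signals, all in complexes with the common partner Smad4, while Smad6 and Smad7 inhibit the receptors and are themselves switched on by the pathway. Ski and SnoN, the product of Skil, bind Smad complexes on DNA and recruit histone deacetylase co-repressors, and Tgif1 is a homeodomain co-repressor of Smad2 and Smad3. In bone marrow, TGF-beta is known as a signal that keeps HSC out of cycle, and Ski has been described as a partner of the retinoblastoma protein.

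As a short piece of regulatory sequence, the start site of Smad6 is shown because it holds the palindrome GTCTAGAC, the core that Smad3 and Smad4 bind. RefSeq promoter windows (GRCm38.p6, 250 bases before to 50 after a start site) were at hand for 6 of the 10 genes (Ski, Smad1, Smad3, Smad5, Smad6 and Tgif1) in 12 windows. The palindrome, which reads the same on both strands, was in 1 of these 12 windows, that of Smad6, and in 0.213% of all 32851 windows. The stretch printed lies on the minus strand at chr9:64022056-64022099. The capitals mark the palindrome at chr9:64022056-64022063, which begins 4 bases before the start site and ends 4 bases after it.
Smad6 start site: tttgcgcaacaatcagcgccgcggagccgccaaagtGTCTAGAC
The E2F-type letters TTTCGCGC, TTTGGCGC or TTTCCCGC, on either strand, were in 1 of the 12 windows, a window of Tgif1, and in 1.84% of all windows. These matches describe letters in these windows only.

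The values are log2 expression values on which 1 unit is a 2-fold step. Array medians ran from 5.93 to 6.01. Over all genes the fitted test, limma with Benjamini-Hochberg adjustment and a threshold of 0.05, called 0 of 18193 genes (0%), with 399 higher (2.19%) and 735 lower (4.04%) in the deficient pools at an unadjusted p under 0.05. Of the targeted genes, Rbl2 stood at 7.82 and 8.21 in deficient pools 1 and 2 and 8.94 and 8.75 in wild type pools 1 and 2. Rb1 stood at 9.82 and 9.72 against 9.37 and 9.58, and Rbl1 at 5.35 and 5.42 against 5.92 and 6.77. These are the brightest probe sets. The other Rbl1 probe sets differed by -0.000873, 0.03 and 0.03, the other Rb1 probe set by 0.46 and the other Rbl2 probe set by -0.33. The sources used here do not say where these probe sets lie relative to the deleted parts, and the labels were not checked with them. Of the gate's markers, Slamf1 (CD150) stood between 8.81 and 9.90, Kit between 9.94 and 11.09 and Cd48 between 5.84 and 7.09 over the 4 arrays, and detection calls were not used here. Nothing in the labels says whether a mouse entered more than 1 pool, so the errors below refer to these pools only. They are moderated by limma, which draws each gene's spread between pools towards a value shared over all genes.

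Skil stood apart from the other 9 genes in the size of its difference. Its product SnoN holds Smad complexes in a repressed state and is itself a known early target of TGF-beta. The main Skil probe set read 10.72 and 11.01 in deficient pools 1 and 2 and 9.56 and 9.56 in wild type pools 1 and 2. Both deficient pools lay above both wild type pools, with a gap of 1.15 between the nearest pair of opposite pools against 0.29 between the 2 deficient pools. The difference was 1.30 on the log2 scale (SE 0.17, n = 2 pools per group), or 2.46-fold higher in the deficient pools, with a limma adjusted p = 0.761 over all genes. By unadjusted p Skil was number 8 of 18193 genes, and by size it was number 41 from the top. Only 0.528% of all genes lay at least 2-fold higher. Since the grouping drew on this value, its place is given as a description.

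A second, much dimmer Skil probe set read 4.75 and 4.46 in deficient pools 1 and 2 and 4.39 and 4.05 in wild type pools 1 and 2. It also had no overlap between the groups, though by a narrow margin, and its difference was 0.39 (SE 0.20). With the mean of both probe sets Skil differed by 0.84. With any 1 pool left out the main probe set gave between 1.16 and 1.45, and between 1.25 and 1.38 when the arrays were scaled in another way.

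**Figure D1:**
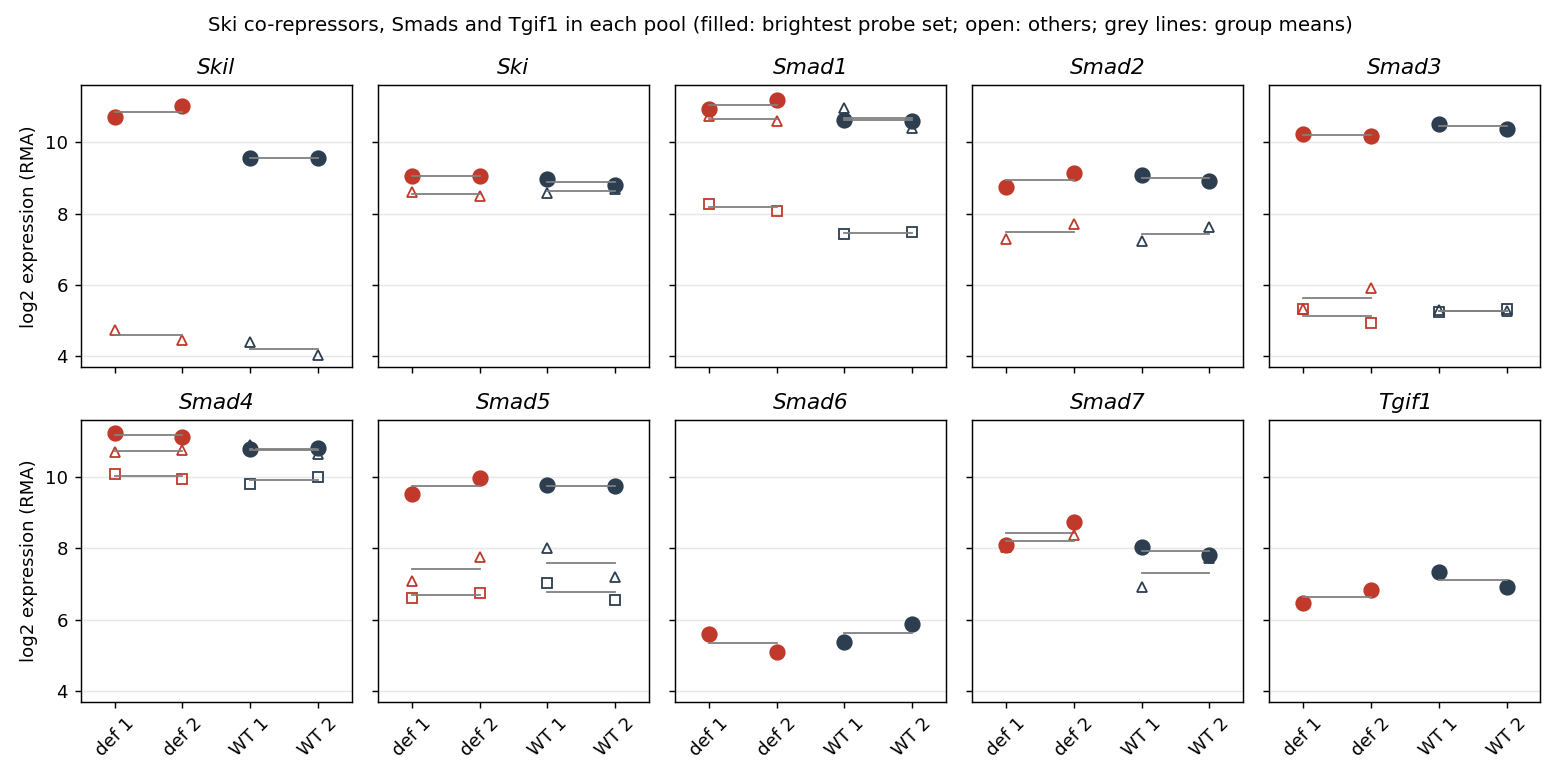
Log2 expression of each probe set of the 10 genes in the 4 pools (def, Rb family deficient, red; WT, wild type, dark). Filled points are the probe set with the highest mean, open points the others, and grey lines the group means of 2 pools; Skil at 10.72 and 11.01 against 9.56 and 9.56 shows the widest gap between groups.

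Ski, the close relative of SnoN and the founding member of the family, did not show a difference of that size. The main probe set read 9.05 and 9.05 in deficient pools 1 and 2 and 8.97 and 8.81 in wild type pools 1 and 2. The groups did not overlap, but the nearest pools of opposite groups were only 0.08 apart, and the difference was 0.16 (SE 0.15, limma adjusted p = 0.886). The other Ski probe set read 8.60 and 8.51 against 8.59 and 8.69, with overlapping groups and a difference of -0.09 (SE 0.15). The 2 Ski probe sets thus lay on opposite sides of 0, and their mean differed by 0.03. Without wild type pool 2 the main Ski probe set differed by 0.08.

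Tgif1, the homeodomain co-repressor, lay on the opposite side from Skil. Its single probe set read 6.46 and 6.84 in deficient pools 1 and 2 and 7.33 and 6.93 in wild type pools 1 and 2, so both deficient pools were lower. The nearest pair was 0.09 apart, while each group's own pools differed by 0.39. The difference was -0.48 (SE 0.22), or 1.40-fold lower, with a limma adjusted p = 0.802. It ran from -0.68 without wild type pool 2 to -0.28 without wild type pool 1.

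Among the receptor Smads of the BMP branch, Smad1 gave different values by probe set. The main Smad1 probe set, whose name ends in _s_at and so may also read related transcripts, stood at 10.93 and 11.19 in deficient pools 1 and 2 and 10.64 and 10.59 in wild type pools 1 and 2. That is a difference of 0.44 (SE 0.16, limma adjusted p = 0.782), with no overlap. A second, almost as bright probe set stood at 10.73 and 10.59 against 10.95 and 10.41, with overlapping groups and a difference of -0.02 (SE 0.22). In the wild type pools alone this second probe set had the slightly higher mean, so the deficient pools decided which one was the main. The third and dimmest stood at 8.26 and 8.09 against 7.42 and 7.50, again without overlap, and had the largest difference of any Smad probe set but 1, at 0.71 (SE 0.15), or 1.64-fold higher. Smad1 is therefore reported as uncertain: 2 of its probe sets lay higher in both deficient pools and the third did not separate the groups.

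Smad5, the other BMP receptor Smad measured here, had a main probe set at 9.54 and 9.98 in deficient pools 1 and 2 and 9.77 and 9.75 in wild type pools 1 and 2. The wild type pools fell between the 2 deficient pools, and the difference was 0.00205 (SE 0.19). Its other probe sets differed by -0.18 (SE 0.35) and -0.10 (SE 0.21), both with overlapping groups.

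For the TGF-beta and activin branch, Smad2 showed overlapping groups in both of its probe sets. The main Smad2 probe set stood at 8.74 and 9.14 in deficient pools 1 and 2 and 9.09 and 8.91 in wild type pools 1 and 2, a difference of -0.06 (SE 0.19). The second read 7.29 and 7.70 against 7.24 and 7.64, with a mean difference of 0.05 (SE 0.22). In this second probe set the pools numbered 2 were higher in both groups, by more than the groups differed.

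Smad3 had its main probe set at 10.24 and 10.18 in deficient pools 1 and 2 and 10.51 and 10.38 in wild type pools 1 and 2. Both deficient pools were lower, by at least 0.14, and the difference was -0.23 (SE 0.15, limma adjusted p = 0.842). Its dimmer probe sets lay on both sides of 0. The first of them, with an _s_at name, read 5.34 and 5.91 against 5.29 and 5.28, a difference of 0.34 (SE 0.23), and the other differed by -0.15 (SE 0.19) with overlapping groups. As the mean of its probe sets Smad3 differed by -0.02.

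Smad4, the common partner of all receptor Smads, was bright on 3 probe sets. The main one read 11.25 and 11.12 in deficient pools 1 and 2 and 10.78 and 10.81 in wild type pools 1 and 2, with no overlap and a difference of 0.39 (SE 0.15), or 1.31-fold, at a limma adjusted p = 0.786. The second read 10.70 and 10.76 against 10.90 and 10.65 and differed by -0.05 (SE 0.16). The third read 10.10 and 9.94 against 9.81 and 10.01 and differed by 0.11 (SE 0.16). The groups overlapped in both of these, so the separation of the Smad4 pools rested on 1 of 3 probe sets. With the mean of the 3 it differed by 0.15.

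Of the inhibitory Smads, Smad7, which blocks TGF-beta receptors and is a feedback target of the pathway, lay higher in the deficient pools on both of its probe sets. The main Smad7 probe set read 8.10 and 8.75 in deficient pools 1 and 2 and 8.05 and 7.82 in wild type pools 1 and 2. The groups were only 0.05 apart at their nearest, and deficient pools 1 and 2 were 0.65 apart, which is more than the difference between groups of 0.49 (SE 0.25, limma adjusted p = 0.813). The other, with an _x_at name that marks probes shared with other transcripts, read 8.03 and 8.39 against 6.91 and 7.72, a difference of 0.89 (SE 0.31), or 1.85-fold higher. Smad7 differed by 0.17 without deficient pool 2 and by 0.82 without deficient pool 1.

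Smad6, the inhibitor that acts mainly on the BMP branch, did not separate the groups. Its only probe set was dim, at 5.59 and 5.10 in deficient pools 1 and 2 and 5.37 and 5.89 in wild type pools 1 and 2. The 2 deficient pools differed by 0.48 and the 2 wild type pools by 0.51, both more than the difference between groups of -0.29 (SE 0.26). It was -0.03 without wild type pool 2 and -0.55 without wild type pool 1.

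**Figure D2:**
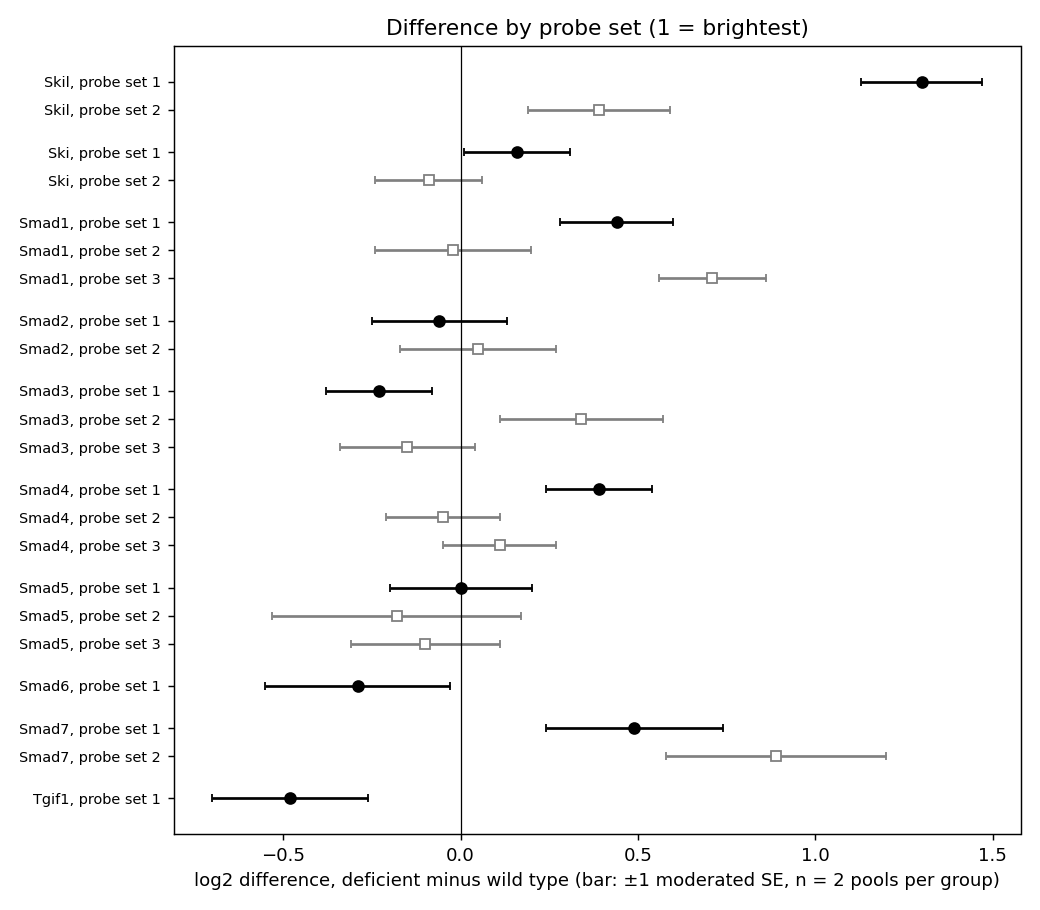
Log2 difference, deficient minus wild type, of all 22 probe sets of the 10 genes, numbered from the brightest (1), with bars of 1 moderated SE (n = 2 pools per group). The main Skil probe set at 1.30 lies to the right of all others, and the probe sets of Ski, Smad1, Smad2, Smad3 and Smad4 fall on both sides of 0.

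Counted over the 10 genes, 0 passed the adjusted threshold, as did 0% of all genes, and 6 lay above 0 and 4 below it, where 49.2% of all genes lay above 0. At an unadjusted p under 0.05 there were 3 genes, Skil, Smad1 and Smad4, beside 6.23% of all genes. The deficient pools lay above both wild type pools for 5 of the 10 genes, beside 17% of all genes, and below both for Smad3 and Tgif1, beside 18.5%, which makes 35.5% of all genes without overlap in either direction. Skil alone of the 10 was past a 2-fold difference, and 0 of the 7 Smads reached 1.5-fold on their main probe set. The median difference of the 10 genes was 0.08, and that of all genes -0.004. These counts come from the contrast that was known when the genes were grouped, and nothing is read from them about the group as a whole.

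The probe sets of a gene often disagreed. Of the 8 genes with more than 1 probe set, 6 had their brightest pair on opposite sides of 0, beside 42.7% of the 9010 genes with several probe sets. The 6 were Ski, Smad1, Smad2, Smad3, Smad4 and Smad5, while Skil and Smad7 had all probe sets above 0. Over the 22 probe sets, the deficient pools lay above both wild type pools in 9 and below both in 2, where 18.1% and 17.4% of all probe sets did so. These 22 include several probe sets of 1 gene, which share their target.

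**Figure D3:**
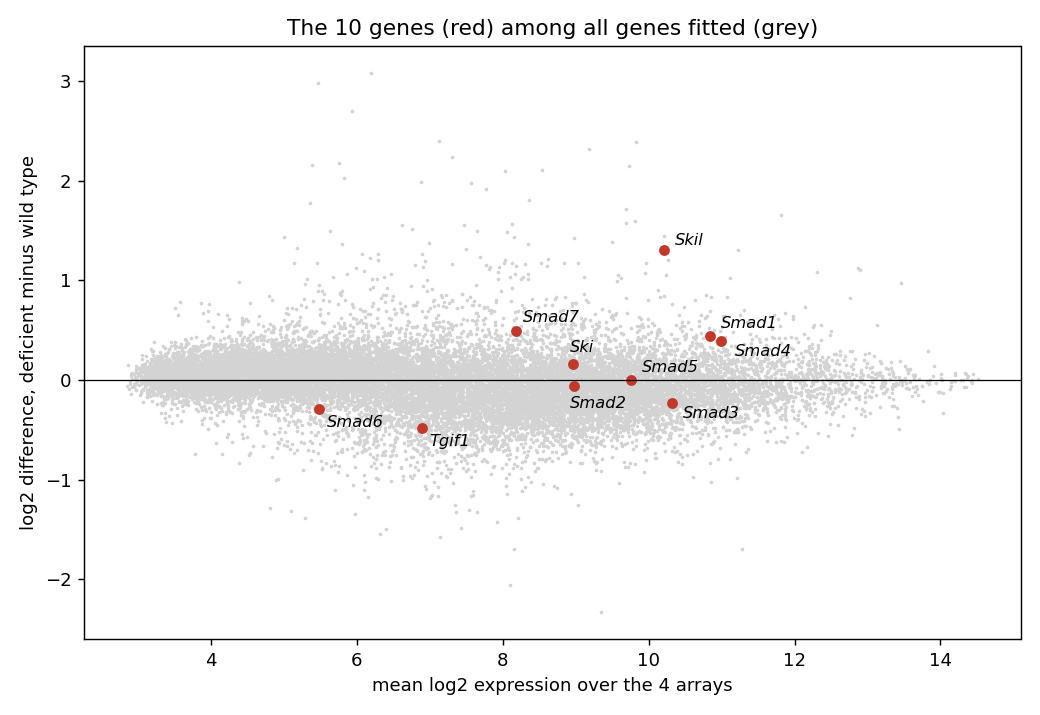
Log2 difference, deficient minus wild type, against mean log2 expression over the 4 arrays, for the 10 genes (red, named) and all 18193 genes fitted (grey), each by its brightest probe set. Skil at 1.30 lies above the bulk of genes of its brightness, and the other 9 genes lie between -0.48 and 0.49.

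The rest of the pathway was followed in lists by role. These lists were drawn up with earlier results of these data known, among them the values of Id2, Cdkn1a, Hes1 and Mecom, and are not independent evidence of a direction. Signals outside the TGF-beta family that may act on the response genes were not examined, so counts of response genes do not measure pathway activity. By limma 0 genes of any list passed over all genes, and counts below are at an unadjusted p under 0.05, where 6.23% of all genes lay.

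Few ligand and receptor genes reached that level. Of 15 measured TGF-beta family ligands 1 was higher and 0 lower at that level, with a median difference of 0.12. The 1 was Bmp6, a BMP that also controls iron balance, at 4.27 and 4.22 against 3.71 and 3.93, a dim signal (difference 0.43, SE 0.16). Tgfb1, the main TGF-beta of blood cells, stood at 6.64 and 6.69 in deficient pools 1 and 2 and 7.19 and 6.61 in wild type pools 1 and 2, with overlapping groups (-0.23, SE 0.23), and differed by 0.06 without wild type pool 1. It differed by -0.52 with the other wild type pool left out and by -0.03 as the mean of its probe sets. Bmp4 (0.33, SE 0.22) and Amh (0.18, SE 0.17) also overlapped. With a pool left out Bmp4 ran from 0.10 to 0.56 and Amh from 0.03 to 0.33, lowest without wild type pool 1 and highest without wild type pool 2.

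Of 16 receptors and co-receptors 0 were higher and 1 lower, with a median of 0.10. Acvr1, a type I receptor that signals to Smad1 and Smad5, read 7.0 and 7.38 in deficient pools 1 and 2 and 7.85 and 8.04 in wild type pools 1 and 2. Both deficient pools were lower, with a mean difference of -0.75 (SE 0.19, limma adjusted p = 0.761), or 1.69-fold. Its dimmer probe sets differed by 0.01 and 0.07, and the mean over all 3 probe sets gave -0.22. The type II receptor gene Bmpr2 differed by 0.27 (SE 0.17), the activin receptor gene Acvr2b by 0.35 (SE 0.25) and the decoy receptor gene Bambi by 0.39 (SE 0.25). Bmpr2 ran from 0.11 (wild type pool 2 left out) to 0.44 (wild type pool 1 left out). With a pool left out Acvr2b ran from 0.03 (wild type pool 1 left out) to 0.67 (wild type pool 2 left out), and the mean of its probe sets gave 0.08. Bambi ran from 0.09 without deficient pool 1 to 0.70 without deficient pool 2.

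Genes that store, release or trap the ligands had a median of 0.16 over 16 genes, with 1 higher, Itgav, the integrin alpha V chain that releases TGF-beta from its latent form. It stood at 10.07 and 10.04 against 9.53 and 9.77 (0.41, SE 0.16), while the mean of its 5 probe sets gave 0.17. The activin trap gene Fst differed by 0.39 (SE 0.18), the latent binding protein gene Ltbp3 by -0.28 (SE 0.16), and Nrros, which anchors latent TGF-beta on myeloid cells, by -0.24 (SE 0.15). Without deficient pool 1 Fst differed by 0.25 and Nrros by -0.14. The other Ltbp3 probe sets differed by -0.39, 0.41 and 0.22, so that the mean over all of them gave -0.01, and the main one gave -0.16 without wild type pool 2.

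Genes that anchor, mark or modify Smads had a median of -0.17 over 17 genes, with 1 higher and 2 lower. Smurf1, a ubiquitin ligase that removes Smad1 and Smad5, read 6.11 and 6.68 in deficient pools 1 and 2 and 7.05 and 6.98 in wild type pools 1 and 2 (-0.62, SE 0.22), and its dimmer probe set differed by 0.03. Smurf1 differed by -0.33 without deficient pool 1 and by -0.30 as the mean of both probe sets. Ube2o, a ubiquitin enzyme that acts on Smad6, read 6.52 and 6.64 against 7.18 and 7.02 (-0.52, SE 0.15), and ran from -0.60 to -0.44 with a pool left out. Zfyve9 (SARA), which brings Smad2 and Smad3 to the receptor, lay the other way at 6.69 and 6.29 against 6.02 and 5.89 (0.53, SE 0.19). Without deficient pool 1 Zfyve9 differed by 0.33. The fourth gene by p, Eid2, differed by -0.36 (SE 0.18), and by -0.22 without wild type pool 2.

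Cofactors and co-repressor partners had a median of -0.01 over 20 genes, with 1 higher and 1 lower. Mecom, a stem cell transcription factor whose product Evi1 is known to bind Smad3, read 10.90 and 11.13 in deficient pools 1 and 2 and 11.80 and 11.62 in wild type pools 1 and 2 (-0.69, SE 0.16), while the mean over its probe sets gave -0.32. Zeb2, which binds activated Smads, read 10.13 and 9.91 against 9.55 and 9.45 (0.52, SE 0.16), but its 4 other probe sets lay on both sides of 0, from -0.43 to 0.61, and the mean over all gave 0.16. Meis1 differed by -0.62 (SE 0.26) on its brightest probe set and by 0.49 and 0.43 on its others, and the mean over all 3 gave 0.10. Its brightest probe set ran from -0.30 without wild type pool 1 to -0.95 without wild type pool 2. Runx1 differed by 0.31 (SE 0.18), and with a wild type pool left out by 0.15 (pool 1) or 0.47 (pool 2).

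Genes known to respond to TGF-beta or activin lay mostly above 0, 18 of the 23 measured, with a median of 0.43. At an unadjusted p under 0.05, 7 were higher and 1 lower in the deficient pools, or 34.8%. Tgfbi, an extracellular matrix protein named for its induction by TGF-beta, read 10.96 and 10.77 in deficient pools 1 and 2 and 9.87 and 9.47 in wild type pools 1 and 2, 2.30-fold higher (1.20, SE 0.19, limma adjusted p = 0.761). All 4 Tgfbi probe sets lay above 0, the others by 0.86, 1.01 and 0.51. Only the one at 0.51, the dimmest, has a name without _s_at or _x_at, so the others may also read other transcripts.

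Cdkn1a, the cell cycle inhibitor p21, read 9.27 and 9.96 against 8.48 and 8.40, 2.25-fold higher (1.17, SE 0.25), and a dimmer probe set gave 1.5. Ccn1, a matrix signalling protein, read 6.19 and 5.90 against 4.57 and 5.16 (1.17, SE 0.24), with all 4 of its probe sets above 0 and their mean at 0.78. The main Ccn1 probe set has an _x_at name, and the only one without an _a_at or _x_at name gave 1.14. The helix-loop-helix repressor gene Bhlhe40 read 7.89 and 7.86 against 7.21 and 7.35 (0.60, SE 0.15). In all 4 genes both deficient pools lay above both wild type pools, but they were picked by lowest p in this contrast, which favours that. Over all 23 genes of the list 8 lay above both wild type pools and 2 below both, beside 17% and 18.5% of all genes.

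The remaining genes at that level, beyond the 4 with the lowest p and named after their values were seen, were Klf10 (0.52), Gadd45b (0.78) and Lmcd1 (0.66), all higher, and the MAP kinase phosphatase gene Dusp4, lower at 6.14 and 7.24 against 8.40 and 7.63 (-1.32, SE 0.44). Gadd45b differed by 0.48 without wild type pool 1, and without deficient pool 1 Lmcd1 differed by 0.37 and Dusp4 by -0.77. The count of 8 was 5 without wild type pool 1 and 13 without deficient pool 2. The list's median was 0.24 without deficient pool 1.

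Of 14 genes known to respond to BMPs 5 were higher and 0 lower at that level, or 35.7%, with a median of 0.16. They were Hes1 and all 4 Id genes, the inhibitors of helix-loop-helix factors that are the best known targets of Smad1 and Smad5, with Id4 named after its value was seen. Id2 read 8.98 and 8.12 in deficient pools 1 and 2 and 6.46 and 6.68 in wild type pools 1 and 2. That is 3.93-fold higher (1.98, SE 0.31). The Id2 probe set next in brightness read 6.26 and 5.84 against 5.06 and 5.60, also without overlap (0.72, SE 0.25). The dimmest was the only one without an _a_at, _s_at or _x_at name. That one was dim in every pool, at 3.76 and 3.63 against 3.77 and 3.76 (-0.07, SE 0.15). The lowest value on the arrays was 2.65. The mean over all Id2 probe sets gave 0.88. Id1 read 7.07 and 7.96 against 5.61 and 6.40 (1.51, SE 0.39).

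Id3 read 6.26 and 6.13 against 4.70 and 5.61 (1.04, SE 0.32), Id4 6.07 and 5.98 against 5.35 and 5.67 (0.52, SE 0.17) and Hes1 7.49 and 7.37 against 6.66 and 6.72 (0.74, SE 0.15). For all 5 genes the deficient pools lay above both wild type pools, but they were picked by p in this contrast, which favours that. Over all 14 genes of the list 8 lay above both wild type pools and 0 below both, beside 17% and 18.5% of all genes. The count of 5 was 3 without deficient pool 1 and 3 without deficient pool 2. Id3 differed by 0.58 without wild type pool 1.

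**Figure D4:**
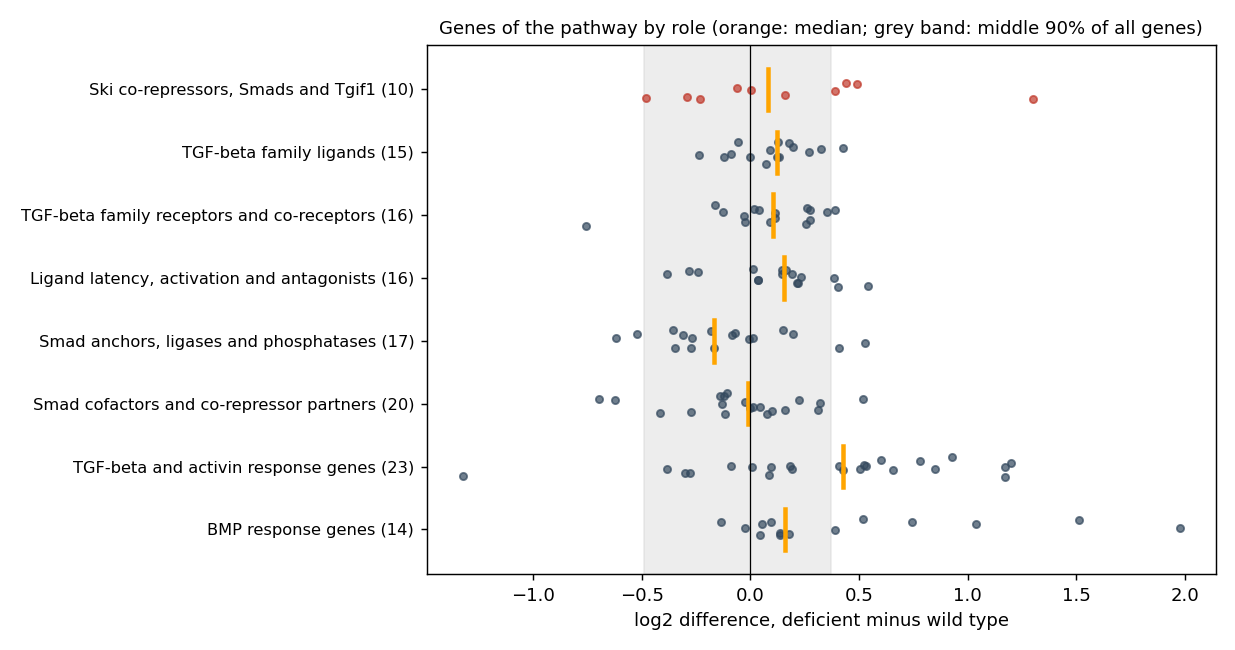
Log2 difference, deficient minus wild type, of each gene (points) in the 10 described genes and in the lists of pathway genes, with the number measured in brackets, the median of each list (orange) and the middle 90% of all genes (grey band, -0.49 to 0.37). The response genes hold the widest spread, from -1.32 to 1.20 for TGF-beta and activin and up to 1.98 for BMPs.

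Other measures of the pools differed between the groups as well, some without overlap and some with it. Mature neutrophils do not fall in the sort gate, and of their 12 measured markers 11 lay above 0 with a median difference of 0.90. Their summed level on the linear scale was 68086 and 43228 in deficient pools 1 and 2 and 20573 and 43597 in wild type pools 1 and 2. The groups thus overlapped in that sum, and deficient pool 1 was highest. Taken gene by gene, 7 of the 12 markers were higher in both deficient pools than in both wild type pools, beside 17% of all genes. In the lower direction 0 of the 12 were without overlap, beside 18.5% of all genes. The defining markers S100a8 (14.28 and 13.61 against 12.36 and 13.56) and Ngp (13.61 and 13.19 against 12.67 and 13.04) were bright in every pool of both groups.

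A sign of RNA quality, the 3' signal of the Actb controls less their 5' signal, was 3.13 and 2.95 in deficient pools 1 and 2 and 2.32 and 2.81 in wild type pools 1 and 2. The same measure on the Gapdh controls was 2.79 and 2.5 against 2.40 and 2.58, with overlapping groups. The Y-linked gene Kdm5d stood at 6.12 and 7.86 against 8.26 and 8.37. Eif2s3y, also Y-linked, read 8.50 and 9.64 against 9.93 and 10.29, and both genes were lower in the deficient pools without overlap. The X-linked Xist read 13.28 and 13.05 against 13.06 and 12.72, with overlapping groups. The share of male and female cells in each pool was not tested. Of 11 measured genes of the sort gate and of HSC, 3 lay above 0 and 8 below, with a median of -0.24. Procr was 10.05 and 10.03 against 10.74 and 11.03, and Kit 9.94 and 10.45 against 11.09 and 10.47. Ctnnal1 lay the other way without overlap, at 8.33 and 8.95 against 7.79 and 7.99, and the other genes above 0, Slamf1 (0.24) and Flt3 (0.19), overlapped. The endothelial and stromal markers summed to 4003 and 1140 on the linear scale against 1176 and 1286, highest in deficient pool 1 and with overlapping groups. Col1a1 (0.93), in that marker list, is also among the TGF-beta and activin response genes. The part of these measures in the differences of Skil and the response genes was not tested. In pooled cells, more RNA per cell and more cells with that RNA cannot be told apart.

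The 5 genes whose 4 array values, centred on each gene's mean, lay closest to those of Skil were Ankrd29, Gp1bb, Klf2, Jund and Klf5, at Euclidean distances of 0.14 to 0.30 on the log2 scale. Klf2, a Kruppel-like transcription factor, read 8.54 and 8.68 in deficient pools 1 and 2 and 7.53 and 7.34 in wild type pools 1 and 2 (1.18, SE 0.16). Jund, a member of the AP-1 family, read 10.50 and 11.01 against 9.72 and 9.70 (1.05, SE 0.21). Like Skil, it was higher in deficient pool 2 than in deficient pool 1 and nearly equal in the wild type pools. As the mean of its probe sets Jund differed by 0.63.

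Gp1bb, a subunit of the platelet von Willebrand factor receptor, differed by 1.17 (SE 0.19), the ankyrin repeat gene Ankrd29 by 1.20 (SE 0.19) and Klf5 by 1.02 (SE 0.16). As means of their probe sets Ankrd29 differed by 0.75 and Klf5 by 0.57, and Klf5 differed by 0.66 on the brightest of those without an _a_at, _s_at or _x_at name. Likeness over 4 arrays of 2 groups is a description, and any gene with a similar difference and a small spread would come out close. None of the 9 other described genes was among the 5.

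**Figure D5:**
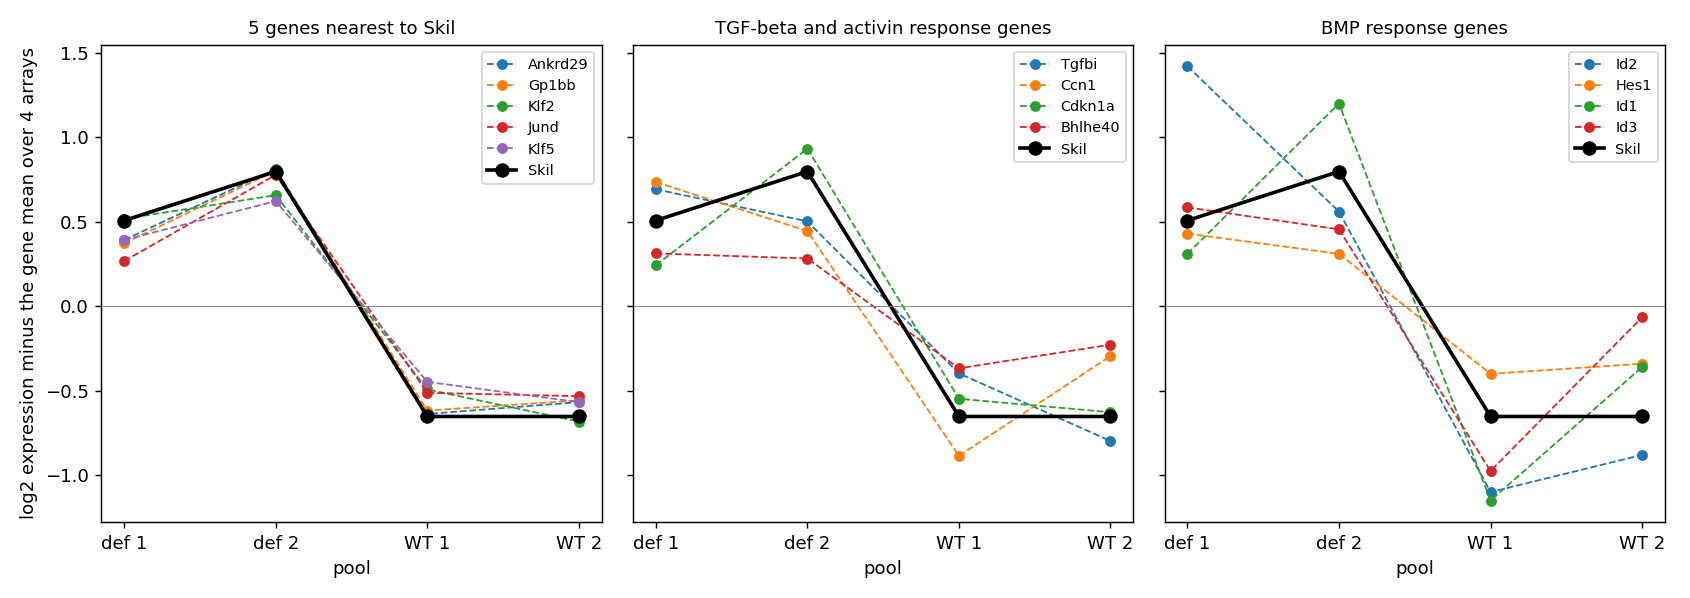
Log2 expression minus each gene's mean over the 4 arrays, by pool, for Skil (black) with the 5 genes closest to it, the 4 TGF-beta and activin response genes with the lowest p, and the 4 BMP response genes with the lowest p; lines join the points of 1 gene and show no order of pools. In all 3 panels the deficient pools (def) lie above 0 and the wild type pools (WT) below it. The genes shown were picked by closeness to Skil or by lowest p in this same contrast, which favours such a separation.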

How the data were processed

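The authors deposited log2 expression values, 1 for each probe set and array, made with RMA per the submitters' processing notes, which also name limma; their versions and settings are not stated in the sources used here. That the scale is log2 follows from the values, which span 2.65 to 14.9. Because RMA evens out the distributions of the arrays, cells with more RNA in total would look the same, and folds of dim probe sets are compressed. The number of arrays limits the precision.

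The table held 45101 probe sets, with 64 array controls left out, 34945 with 1 gene symbol, 932 with several genes and 9160 unnamed here. Symbols were updated by Entrez ID with a RefSeq table (GRCm38.p6), in which 34741 were found. Each gene took the probe set with the highest mean, with no filter on dim signals.

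Differences, deficient minus wild type, were fitted over all 18193 genes with limma 3.58.1 in R 4.3.3 (lmFit and eBayes, no block, Benjamini-Hochberg, adjusted p threshold 0.05), and over all probe sets for the further probe sets. SEs are moderated. The fit was tested on simulated data. The members and lists were chosen with earlier results of these data known. Named are the 10 genes, up to 4 genes per list by lowest p, 5 genes closest to Skil, and Rb1, Rbl1 and Rbl2. Pool numbers are shared by the titles of both groups, and the blocked fit is an alternative. Other alternatives were scaling, choice of probe set, a filter on dim genes, the variance prior and leaving out each pool.

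The 9 lists of cell type markers had these median differences: mature neutrophils 0.90, granulocyte and monocyte progenitors 0.46, macrophages 0.12, megakaryocytes and platelets -0.12, erythroid cells 0.19, B cells 0.29, T and NK cells 0.04, endothelial and stromal cells 0.18, and HSC and sort gate -0.24. No genes of these lists passed limma's adjusted threshold (0, with 7 at an unadjusted p under 0.05 in all). Of 12 mature neutrophil markers 3 were higher at that level (25%), Lcn2 (1.30), Mmp8 (2.24) and Mmp9 (1.56). Of 11 HSC and sort gate genes (36.4% at that level), 3 were lower, Procr (-0.85), Mecom (-0.69) and Cd34 (-0.76), and 1 higher, Ctnnal1 (0.75). The share of all genes was 6.23%.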

Additional observations from a re-analysis of the deposited data

How the results depend on the processing

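Under the 11 alternatives fixed at the outset limma called 0 of the 10 genes and 0 genes of the whole table, and Skil, Ski, Smad3, Smad6, Smad7 and Tgif1 kept their direction wherever they were fitted (Smad6 fell to the filter on dim genes). Of the 3 genes at an unadjusted p under 0.05, 1 was left, Skil, with median centring, with specific probe sets first, without dim genes and with the replicate block. With the mean of probe sets the genes at that level were Skil, Smad1 and Smad7, and with another variance prior they were Skil and Smad1. With a pool left out Skil ran from 1.16 to 1.45, Smad1 from 0.31 to 0.58 and Smad4 from 0.32 to 0.45. Smad7 then ran from 0.17 to 0.82 and Tgif1 from -0.68 to -0.28. With specific probe sets first Smad1 differed by -0.02, Smad2 by 0.05 and Smad4 by -0.05. Specific here meant only a name without _a_at, _s_at or _x_at, and shared probes were not checked. The main probe sets passed over had an _s_at name for Smad1 and _a_at names for Smad2 and Smad4. Smad2 was 0.03 after another quantile normalization and ran from -0.26 to 0.13 with a pool left out. Smad5 was -0.05 with median centring, -0.09 as the mean of its probe sets, and ran from -0.22 to 0.22 with a pool left out. The cofactor median was 0.06 after quantile normalization and 7.82e-06 with the mean of probe sets, and ran from -0.09 to 0.02 with a pool left out. Without wild type pool 1 the medians were -0.00181 for receptors, -0.02 for latency genes and 0.02 for anchors and ligases; these ran from -0.00181 to 0.09, -0.02 to 0.27 and -0.25 to 0.02 with a pool left out. The causes were not tested. The deviations of same-numbered pools from their group means were weakly and negatively correlated over genes (-0.188), and nothing pairs the numbers. The replicate block gave 281 genes higher and 457 lower by unadjusted p, and the crossed pairing, chosen after seeing the data, 518 and 1151, against 399 and 735 without a block, with 0 adjusted calls in each. The higher count was 254 without dim genes. Leaving out wild type pool 2 gave 689 higher, and leaving out deficient pool 1 gave 244 higher and 317 lower. With median centring the split was 298 higher and 1009 lower.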
